A study of Mus musculus with 4 samples.

Results

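The genes described here are 38 named genes of autophagy and the lysosome: 19 of the autophagy machinery, 3 transcription factors that control both systems, 4 proteins of the lysosome membrane, 7 lysosomal hydrolases or proteins that work with them, and 5 subunits of the proton pump. They were chosen by name, as genes that are the only symbol of a row of the array table, and of several such rows of a gene the brightest was read. By that rule 35 of the 38 were measured, among 22180 genes in all. Becn1 and Vmp1 each had 1 further row, shared with other symbols, that was not read. Optn and Atp6v0c had no row of their own, and Glb1 lay only on a row shared with another symbol, so these 3 genes have no values. The tissue was whole pancreas of 8-week-old mice, labelled as Ifrd1 null (n = 2) or wild type (n = 2), and each mouse gave 1 Affymetrix array. All 4 mice had received cerulein, an analog of the hormone cholecystokinin that over-stimulates acinar cells and causes pancreatitis, at 100 µg/kg, 6 times a day on every other day, and tissue was taken on day 5. Ifrd1 encodes a transcriptional co-regulator, and the labels describe neither the null allele nor the strain. Uninjured pancreas is not analysed here, so every difference is between genotypes within injured tissue.

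Autophagy encloses cytoplasm in a double membrane and delivers it to the lysosome, where hydrolases work at a low pH that the proton pump (the vacuolar ATPase) maintains. Acinar cells run this system at a high rate because they make and turn over large amounts of secretory protein, and in cerulein pancreatitis autophagy is known to stall between the closed autophagosome and a working lysosome. Many lysosomal genes share a regulatory element, the CLEAR element, which is built around the E-box letters CACGTG and is bound by the transcription factors TFEB, TFE3 and MITF. Macrophages, which enter the injured pancreas, are also rich in lysosomes.

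Values are the authors' deposited values per array, read as log2 levels, and differences are Ifrd1 null minus wild type on that scale, with the moderated standard error (SE) of limma. Adjusted p-values come from limma after Benjamini-Hochberg correction across the whole table, and a gene passes under 0.05. The Ifrd1 transcript itself stood at 6.99 and 7.09 in the null arrays, against 9.04 and 9.07 in the wild-type arrays, and its adjusted p was 0.138 (limma). Its call depended on the setting: limma gave an adjusted p of 0.0349 after median centring, 0.0419 with trend and robust eBayes and 0.0211 without genes that have identical values, and between 0.0586 and 0.719 under the other alternatives. The genotypes also differed in sex-linked genes: Xist was at 10.2 and 9.58 in the null arrays, against 2.56 and 3.54 in the wild-type arrays, and the Y-linked gene Uty was at 2.25 and 2.36 in the null arrays, against 6.41 and 6.40 in the wild-type arrays. Genotype and the sex read from these genes cannot be told apart here, for any difference below. Acinar markers were present in every array, with a summed level of 29120 and 32890 in the null arrays, against 31280 and 31200 in the wild-type arrays (7 of 9 listed markers measured, linear scale). In whole tissue, fewer cells of a type and less RNA per cell cannot be told apart. The labels call the samples biological replicates, and with 2 mice per genotype the smallest two-sided p that exact permutation allows for any gene is 0.333.

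The lysosome genes had mostly lower means in the Ifrd1 null pancreas, by a small margin, and the means of the autophagy genes were split evenly. Of the 14 measured genes of the membrane, the hydrolases and the pump, 13 had a lower mean in the null, with a median difference of -0.20. Of the 18 measured autophagy genes, 9 were lower and 9 higher, with a median difference of -0.01. The contrast between the 2 sets was not tested and rested on null 2: without it the lysosome median was -0.10 (12 of 14 lower) and the autophagy median -0.09 (13 of 18 lower). No single gene passed: the adjusted p-values of the 35 genes lay between 0.727 and 0.997 (limma), and their differences between -0.33 and 0.27. At an unadjusted p under 0.05 there were also 0 of the 35, where 6.91% of all genes were at that level and 0.00451% passed the adjusted threshold.

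The direction of the lysosome genes has to be read against other bright genes, here all genes above the median level. That set is dimmer than the lysosome genes, with a median level of 6.26 against 8.32. It is therefore not a background matched in level, and a matched set was not compared. The mean was lower in the null for 52.6% of all genes, but for 67.3% of the 11090 genes above the median level, and 34 of the 35 genes belong to that brighter set. The median difference was -0.01 over all genes and -0.07 over the brighter set. The 24 of 35 genes with a lower mean (68.6%) are therefore near the background of bright genes, while the lysosome genes stood at 13 of 14 (92.9%), a count given without a test. Their median was -0.34 without null 1, and the -0.10 without null 2 was close to the -0.07 of the brighter set. After quantile normalization the brighter set was balanced, at 50.6% lower, and 12 of the 14 lysosome genes were still lower, while 5 of the 18 autophagy genes were lower and their median was 0.05. After cyclic loess, with 49.6% of the brighter set lower, the counts were 12 of 14 and 4 of 18.

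**Figure D1:**
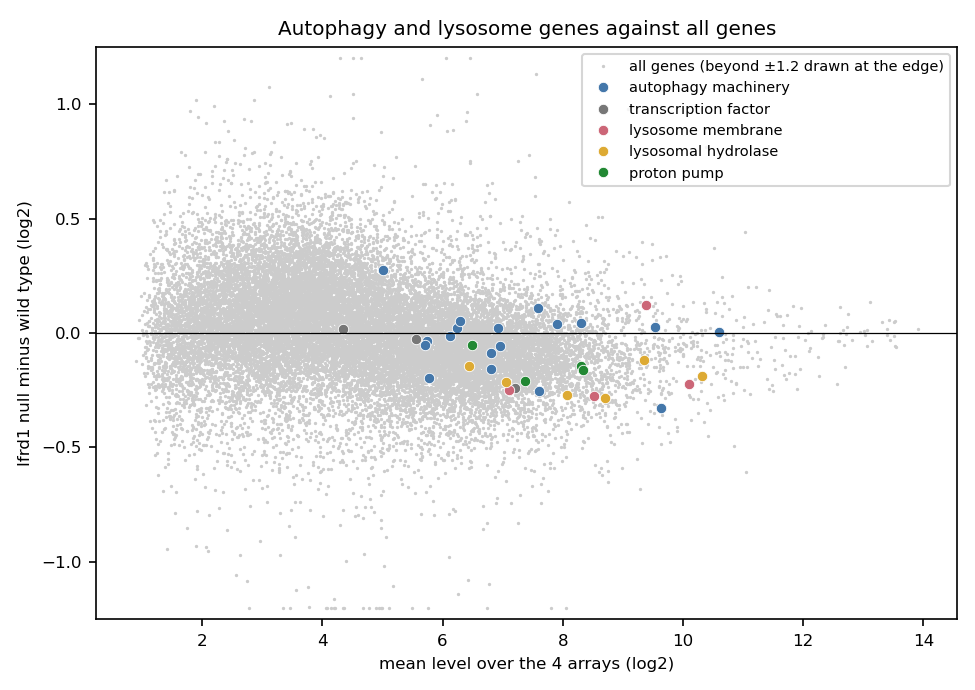
Difference between genotypes (Ifrd1 null minus wild type, log2, vertical axis) against the mean level over the 4 arrays (log2, horizontal axis), with all 22180 genes in grey and the 35 measured genes coloured by role. The cloud of bright genes sits slightly below 0, with a median of -0.07, and the membrane, hydrolase and pump genes apart from Cd63 lie below 0.

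A stricter description asks whether both null arrays lay below both wild-type arrays. This held for 10 of the 14 lysosome genes, where it held for 19.7% of all genes and 29.1% of the brighter set. It held for 3 of the 18 autophagy genes (Sqstm1, Atg5 and Wipi2) and for 1 of the 3 transcription factors (Tfe3). Both null arrays lay above both wild-type arrays for 4 genes, Vmp1, Atg3, Wipi1 and Cd63, where this held for 16.1% of all genes and 8.82% of the brighter set.

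**Figure D2:**
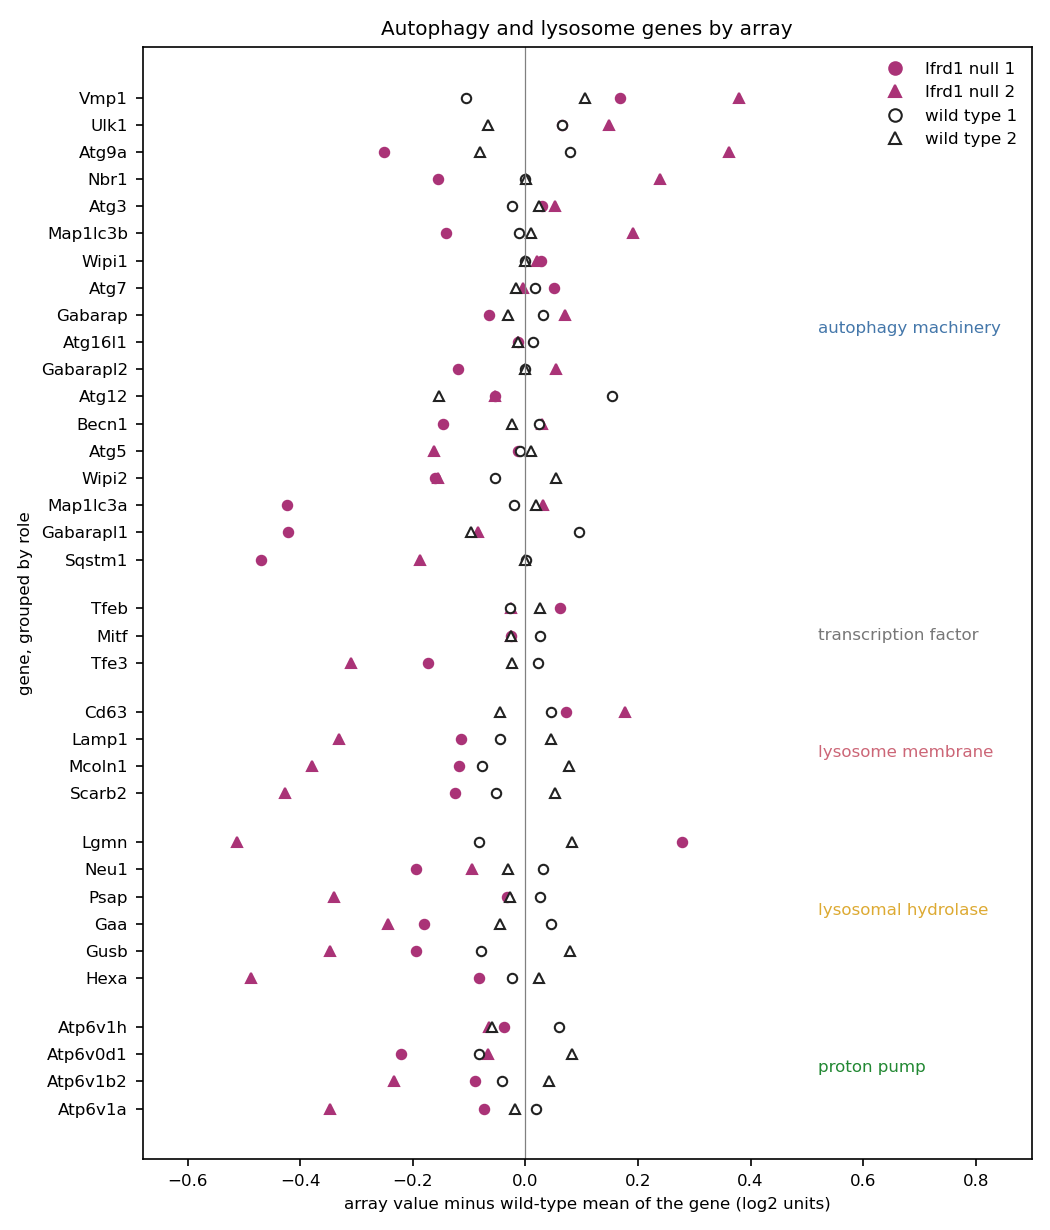
Value of each gene in each array minus the mean of its 2 wild-type arrays (log2, horizontal axis), 1 line per gene, grouped by role and ordered by the difference between genotypes within a role. Filled symbols are Ifrd1 null arrays and open symbols wild-type arrays. Membrane, hydrolase and pump genes have their null symbols mostly left of 0, and null 2 (filled triangles) lies further left than null 1 in 11 of these 14 genes.

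The core letters of the CLEAR element, CACGTG, were looked for in the promoters of these genes. Windows of 250 bases before to 50 bases after the annotated start (RefSeq, build GRCm38.p6) were found for 32 of the 38 genes, and CACGTG, which reads the same on both strands, was in 10 of the 32 (31.2%). It was in 2187 of 27025 genes with such a window (8.09%). A gene with several windows counts here if any of them holds the motif. Counted by window, CACGTG was in 10 of 44 windows of these genes (22.7%), against 7.15% of all windows. The longer form TCACGTG, searched on both strands and always overlapping CACGTG, was in 9 of the 32 (28.1%), against 4.29% of all genes with a window. By role, CACGTG was found in 2 of 4 membrane genes (Lamp1 and Mcoln1), 3 of 7 hydrolase genes (Gaa, Lgmn and Glb1), 2 of 3 pump genes (Atp6v0d1 and Atp6v1a), 3 of 15 autophagy genes (Atg3, Atg5 and Atg7) and 0 of 3 transcription factor genes. These matches describe letters in a window and do not show a bound site.

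The 150 bases before the start are given for 4 measured lysosome genes and 1 autophagy gene, with every CACGTG in capitals, each read 5′ to 3′ on the gene's strand. Lamp1 and Mcoln1 are shown because they repeat the motif, Gaa and Atp6v1a as a hydrolase and a pump subunit with 1 copy, and Atg3 as the autophagy gene with 2 copies.
Lamp1 (chr8:13159011-13159160, plus strand): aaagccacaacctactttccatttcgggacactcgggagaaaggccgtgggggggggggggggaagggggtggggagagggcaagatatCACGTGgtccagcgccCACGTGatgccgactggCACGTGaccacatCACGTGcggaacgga
Mcoln1 (chr8:3500369-3500518, plus strand): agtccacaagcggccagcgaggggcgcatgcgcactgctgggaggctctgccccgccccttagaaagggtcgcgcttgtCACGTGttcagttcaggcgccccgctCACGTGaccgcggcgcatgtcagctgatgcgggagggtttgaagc
Gaa (chr11:119267813-119267962, plus strand): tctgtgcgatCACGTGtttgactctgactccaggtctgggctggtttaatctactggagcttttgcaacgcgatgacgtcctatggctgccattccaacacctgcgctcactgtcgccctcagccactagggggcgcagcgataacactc
Atp6v1a (chr16:44139260-44139409, minus strand): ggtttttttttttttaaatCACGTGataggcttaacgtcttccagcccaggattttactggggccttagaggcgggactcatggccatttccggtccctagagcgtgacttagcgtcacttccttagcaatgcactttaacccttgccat
Atg3 (chr16:45158679-45158828, plus strand): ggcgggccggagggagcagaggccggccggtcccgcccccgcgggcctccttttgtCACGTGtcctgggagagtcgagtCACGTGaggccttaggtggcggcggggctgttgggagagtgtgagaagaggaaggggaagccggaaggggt
Lamp1 holds 4 copies, which begin 61, 45, 28 and 15 bases before the start, and Mcoln1 holds 2, at 71 and 45 bases. Gaa and Atp6v1a have 1 copy each, at 140 and 131 bases. In Atg3 the copies begin 94 and 71 bases before the start.

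Differences of genes with and without the motif are set side by side here as a description. The 9 measured genes with CACGTG in a window had a median difference of -0.14, and 7 of them had a lower mean in the null. The 20 measured genes with a window and no CACGTG had a median of -0.03, with 11 lower, and this second set holds Sqstm1, Hexa, Scarb2 and Gusb. The motif is more common among the lysosome genes, so motif and role overlap in this comparison.

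The membrane proteins of the lysosome were lower in the null with the exception of Cd63. Lamp1, a heavily glycosylated protein that lines the inside of the lysosome membrane, was at 10.09 and 9.87 in the null arrays, against 10.16 and 10.25 in the wild-type arrays. Both null values were below both wild-type values, and the difference was -0.22 ± 0.13 (SE), or 1.17-fold lower in the null (limma adjusted p = 0.761). Scarb2 (LIMP-2), the receptor that carries the enzyme glucocerebrosidase to the lysosome, was at 8.53 and 8.23 in the null arrays, against 8.60 and 8.71 in the wild-type arrays. Its difference was -0.28 ± 0.15 (SE; limma adjusted p = 0.751), again with groups that did not overlap. Mcoln1, the calcium channel of the lysosome membrane whose opening activates TFEB, was at 7.11 and 6.85 in the null arrays, against 7.15 and 7.31 in the wild-type arrays, a difference of -0.25 ± 0.14 (SE). In all 3 genes null 2 was the lowest array and null 1 lay just under the wild-type values.

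Cd63, a tetraspanin of late endosomes, lysosomes and secretory granules, was the 1 lysosome gene with a higher mean in the null. It was at 9.39 and 9.49 in the null arrays, against 9.36 and 9.27 in the wild-type arrays, a difference of 0.12 ± 0.11 (SE; limma adjusted p = 0.801). Both null arrays were above both wild-type arrays, although null 1 was above wild type 1 by a margin smaller than the spread within either genotype. It kept its sign when any 1 array was left out and under quantile normalization and cyclic loess.

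All 6 measured hydrolase genes had a lower mean in the null. Hexa, the alpha subunit of hexosaminidase A, which degrades GM2 ganglioside, was at 8.77 and 8.36 in the null arrays, against 8.83 and 8.87 in the wild-type arrays. Its difference of -0.28 ± 0.17 (SE) corresponds to a 1.22-fold lower level, with a 95% interval from -0.74 to 0.17 on the log2 scale. Gusb, beta-glucuronidase, had the smallest unadjusted p of the role (0.0874), at 8.01 and 7.86 in the null arrays, against 8.13 and 8.29 in the wild-type arrays, a difference of -0.27 ± 0.12 (SE; limma adjusted p = 0.730). Gaa, the acid alpha-glucosidase that breaks down glycogen in the lysosome, was at 6.98 and 6.92 in the null arrays, against 7.21 and 7.12 in the wild-type arrays. Gaa had null arrays close to each other and both below the wild type, with a difference of -0.21 ± 0.11 (SE). Neu1, a sialidase, differed by -0.14 ± 0.11 (SE) and did not overlap between genotypes either.

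Among the hydrolase genes the null arrays stood furthest apart in Lgmn, Hexa and Psap, with null 1 minus null 2 at 0.79, 0.41 and 0.31. Psap, the precursor of the saposins that present lipids to hydrolases, was at 10.38 and 10.07 in the null arrays, against 10.44 and 10.38 in the wild-type arrays, so null 1 lay at the level of wild type 2, and the difference was -0.19 ± 0.14 (SE). Lgmn, legumain, the protease that matures cathepsins, was at 9.69 and 8.90 in the null arrays, against 9.33 and 9.49 in the wild-type arrays. The 2 null arrays lay on opposite sides of the wild type, and the difference was -0.12 ± 0.29 (SE), the largest error among the 35 genes. Without null 2 the Lgmn difference was 0.28, and without null 1 it was -0.51.

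The pump subunits had small differences of one direction. Atp6v1a, the catalytic A subunit of the part of the pump that splits ATP, was at 7.40 and 7.12 in the null arrays, against 7.49 and 7.45 in the wild-type arrays, a difference of -0.21 ± 0.14 (SE; limma adjusted p = 0.768). Atp6v1b2, the B subunit of the same part, was at 8.32 and 8.18 in the null arrays, against 8.37 and 8.45 in the wild-type arrays, a difference of -0.16 ± 0.11 (SE). In both genes the groups did not overlap, and null 2 was the lowest array. A second, dimmer row of Atp6v1b2 gave a difference of 0.03, so the rows of this gene disagree in sign. Atp6v0d1, a subunit of the membrane part, was at -0.14 ± 0.12 (SE), and Atp6v1h, a regulatory subunit, at -0.05 ± 0.11 (SE), both with overlapping groups. The sign of Atp6v1h turned to higher in the null with quantile normalization and with cyclic loess. The median of the 4 subunits was -0.15, -0.08 with quantile normalization and -0.04 with cyclic loess.

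Among the transcription factors, Tfe3 was lower in the null and Tfeb and Mitf differed little. Tfe3 was at 7.16 and 7.02 in the null arrays, against 7.35 and 7.30 in the wild-type arrays, with no overlap and a difference of -0.24 ± 0.11 (SE; limma adjusted p = 0.731). Tfe3 lies on the X chromosome, and the arrays differ in the sex read from Xist and Uty as well as in genotype. Tfeb was at 4.39 and 4.30 in the null arrays, against 4.30 and 4.35 in the wild-type arrays, a difference of 0.02 ± 0.10 (SE) with a 95% interval from -0.26 to 0.30. Its level lay below the median gene (4.67), the only one of the 35 genes for which this was so. Mitf was at 5.55 and 5.55 in the null arrays, against 5.60 and 5.55 in the wild-type arrays, and 3 of its 4 values were identical. The signs of Tfeb and Mitf turned with quantile normalization and cyclic loess. Transcript levels do not report on the activity of these factors, which is set largely by phosphorylation and movement into the nucleus.

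In the autophagy machinery the gene with the lowest difference was Sqstm1, which encodes the cargo receptor p62 that links ubiquitinated proteins to the forming autophagosome and is itself degraded with its cargo. Sqstm1 was at 9.33 and 9.61 in the null arrays, against 9.80 in each wild-type array. Both null arrays were below the wild type, null 1 most, and the difference was -0.33 ± 0.14 (SE), or 1.26-fold lower in the null (unadjusted p = 0.0685; limma adjusted p = 0.727). Its 95% interval ran from -0.69 to 0.04. The related cargo receptor Nbr1 was at 8.12 and 8.52 in the null arrays, against 8.28 in each wild-type array, with the null arrays on either side of the wild type and a difference of 0.04 ± 0.17 (SE).

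The Atg8 family, the small ubiquitin-like proteins that are coupled to lipid on the autophagosome membrane, had no difference beyond the overlap of the arrays. Map1lc3b (LC3B) was at 9.38 and 9.71 in the null arrays, against 9.51 and 9.53 in the wild-type arrays, a difference of 0.03 ± 0.15 (SE). Gabarap was at 10.54 and 10.67 in the null arrays, against 10.63 and 10.57 in the wild-type arrays, a difference of 0.00 ± 0.11 (SE), and its dimmer second row gave -0.25. Gabarapl1 was at 7.31 and 7.65 in the null arrays, against 7.83 and 7.64 in the wild-type arrays, a difference of -0.25 ± 0.16 (SE). Map1lc3a was at 5.45 and 5.91 in the null arrays, against 5.86 and 5.90 in the wild-type arrays, a difference of -0.20 ± 0.18 (SE). In each of Map1lc3b, Gabarap, Gabarapl1, Map1lc3a and Gabarapl2 (-0.03 ± 0.11, SE) null 1 was the lowest of the 4 arrays, while null 2 was at or above at least 1 wild-type array, so the genotypes overlapped in all 5. These genes have close relatives in the genome, and how far probes of a row read a relative was not tested.

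Genes that start autophagy and build the membrane were close to 0. Ulk1, the kinase that starts autophagy and is held back by mTORC1, was at 7.59 and 7.68 in the null arrays, against 7.59 and 7.46 in the wild-type arrays, a difference of 0.11 ± 0.11 (SE). Becn1 (Beclin 1), a subunit of the lipid kinase complex that marks the site, differed by -0.06 ± 0.12 (SE). The conjugation genes Atg3 (0.04 ± 0.10), Atg5 (-0.09 ± 0.11), Atg7 (0.02 ± 0.10), Atg12 (-0.05 ± 0.14) and Atg16l1 (-0.01 ± 0.10), whose products attach Atg8 proteins to lipid, all had differences below their SE (log2 difference ± SE). Atg9a, the lipid scramblase of the vesicles that seed the membrane, was at 6.01 and 6.62 in the null arrays, against 6.34 and 6.18 in the wild-type arrays, which puts the whole wild-type range between the null arrays. Of the lipid-binding proteins, Wipi2 was at 6.73 and 6.73 in the null arrays, against 6.83 and 6.94 in the wild-type arrays, a difference of -0.16 ± 0.11 (SE), and Wipi1 differed by 0.02 ± 0.10 (SE).

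Vmp1, a scramblase of the endoplasmic reticulum that is induced in acinar cells during experimental pancreatitis, had the largest positive difference of the 35 genes. It was at 5.05 and 5.26 in the null arrays, against 4.77 and 4.98 in the wild-type arrays. Both null arrays were above both wild-type arrays, null 1 above wild type 2 by less than the spread within either genotype, and the difference was 0.27 ± 0.14 (SE), or 1.21-fold higher in the null (limma adjusted p = 0.746).

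The 2 null arrays differed from each other in opposite directions for lysosome and autophagy genes. Null 2 was below null 1 in 11 of the 14 lysosome genes (the exceptions were Cd63, Neu1 and Atp6v0d1), and above null 1 in 13 of the 18 autophagy genes. Of all 22180 genes, null 2 was below null 1 in 10175 and above it in 11096. Of the 11090 genes of the brighter set, it was below in 5538 and above in 5202. Against the wild-type mean, the medians were -0.12 in null 1 and -0.355 in null 2 for membrane genes, -0.13 and -0.34 for hydrolase genes, and -0.08 and -0.15 for pump genes, with null 1 first. The autophagy medians were -0.09 in null 1 and 0.03 in null 2. Null 1 was below both wild-type arrays in 11 of the 14 lysosome genes, where this held for 38.3% of all genes and 50.1% of the brighter set. Null 2 was below both in 12 of the 14, where this held for 36.5% of all genes and 50.1% of the brighter set. Single genes also differed between the wild-type arrays, with wild type 1 minus wild type 2 at 0.31 for Atg12, -0.21 for Vmp1 and 0.19 for Gabarapl1, the 3 widest of the 35 genes.

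Markers of other cells moved between the same arrays. All 12 macrophage markers were lower in null 2 than in null 1, and their summed level was 6451 and 4127 in the null arrays, against 5509 and 6007 in the wild-type arrays (linear scale, 12 of 12 measured, the dimmest with a mean of 6.99 on the log2 scale). Their medians against the wild-type mean were 0.16 in null 1 and -0.42 in null 2. Markers of fibroblasts and stellate cells had medians of 0.14 in null 1 and -0.45 in null 2, and B and plasma cell markers 1.11 and -0.62. Acinar markers went the other way, with all 7 measured markers higher in null 2 than in null 1 and medians of -0.20 in null 1 and 0.08 in null 2. Endothelial markers were lower in both null arrays, as the lysosome genes were: all 6 had a lower mean, 5 of them without overlap, with a median difference of -0.23 and medians of -0.27 in null 1 and -0.25 in null 2. Their summed level was 529.3 and 527 in the null arrays, against 663.9 and 624.9 in the wild-type arrays (linear scale). Medians were also below the wild-type mean for duct markers, at -0.33 in null 1 and -0.39 in null 2 (4 of 5 lower). For islet markers they were at -0.32 in each (3 of 5 lower). By genotype mean, 11 of 12 macrophage markers were lower in the null (median difference -0.07), 1 of them without overlap. So were 6 of 8 fibroblast and stellate markers (-0.13) and 4 of 7 acinar markers (-0.06). Of B and plasma cell markers 0 of 6 were lower, and of T and NK cell markers 0 of 5. The membrane and hydrolase genes were lowest in the array with the lowest macrophage level, and the autophagy genes were higher in the array with the higher acinar level. In null 1, where the macrophage median was above the wild type, the medians of the membrane, hydrolase and pump genes were still below it, at -0.12, -0.13 and -0.08, beside -0.07 for the brighter genes as a whole. The part of these cell types in the genotype differences was not tested beyond these values.

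**Figure D3:**
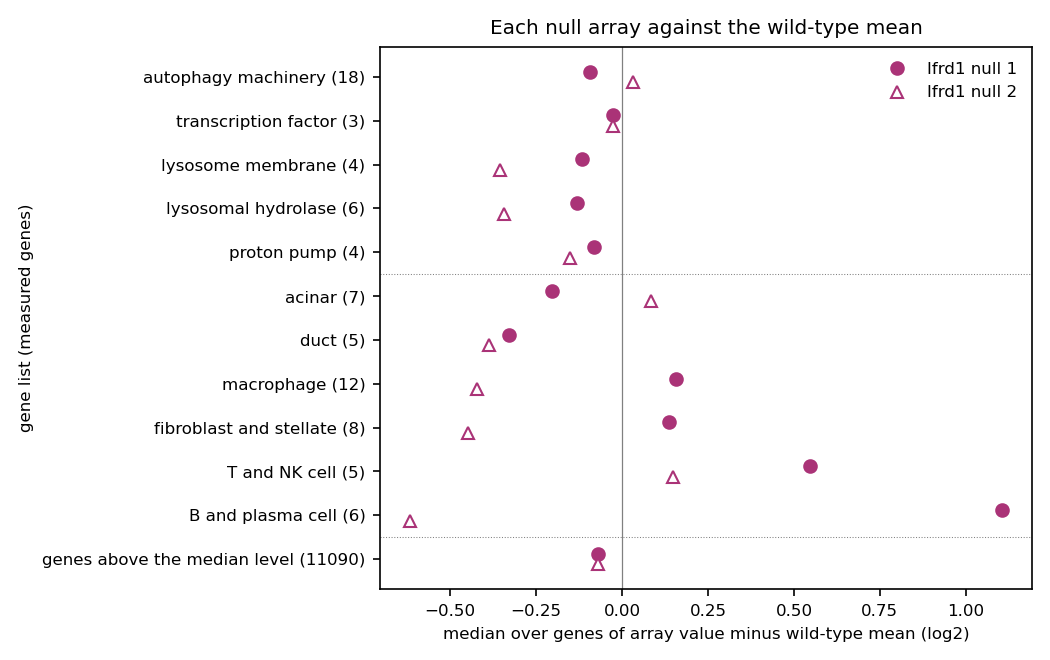
Median over the genes of each list of the array value minus the wild-type mean (log2, horizontal axis), for Ifrd1 null 1 (filled circles) and Ifrd1 null 2 (open triangles), with the number of measured genes in brackets. The upper block holds the roles described here, the middle block marker lists of cell types and the bottom line the 11090 genes above the median level, where both arrays sit at -0.07. Membrane and hydrolase genes lie below 0 in both arrays, while macrophage markers lie at 0.16 in null 1 and -0.42 in null 2.

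A wider set of genes of the same pathways, listed from textbook membership, was read in the same fit. Of 118 such genes 111 were measured, and none passed the adjusted threshold (0 genes; limma adjusted p of at least 0.721), with 8 at an unadjusted p under 0.05 and lower in the null and 1 higher. At that level 3.63% of all genes were lower and 3.27% higher, and 5.41% and 1.23% of the brighter set. The mean was lower for 21 of 22 further lysosome membrane genes (median -0.13), 22 of 26 further hydrolase genes (-0.16), 26 of 35 further autophagy genes (-0.05), 7 of 9 mannose 6-phosphate sorting genes (-0.05) and 13 of 19 further pump genes (-0.08), beside 67.3% and -0.07 for the brighter set. By level, only 13 of the 19 further pump genes belong to the brighter set, so its share is not a like background for that list. Its dimmer genes were Atp6v0a4, Atp6v0d2, Atp6v1b1, Atp6v1c2 and Atp6v1f, with higher means in the null, and Atp6v1e2, with a lower one. Both null arrays lay below both wild-type arrays in 24 of the 48 further membrane and hydrolase genes and in 15 of the 35 further autophagy genes, where this held for 29.1% of the brighter set. The further membrane list holds 1 macrophage marker, Cd68.

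Among the further hydrolases, Manba, the lysosomal beta-mannosidase, had the smallest unadjusted p of the whole wider set. It was at 6.99 and 6.85 in the null arrays, against 7.43 and 7.45 in the wild-type arrays, a difference of -0.52 ± 0.11 (SE), or 1.43-fold lower in the null (unadjusted p = 0.0072; limma adjusted p = 0.721). Ppt1, the thioesterase that removes fatty acids from proteins, was at 8.41 and 8.33 in the null arrays, against 8.70 and 8.75 in the wild-type arrays, a difference of -0.35 ± 0.10 (SE). Sgsh, a heparan sulfatase, differed by -0.29 ± 0.10 (SE), and Tpp1, a peptidase, by -0.21 ± 0.11 (SE). In these 4 enzymes the null arrays lay close together. Manba, Ppt1 and Sgsh were chosen for a small p, which favours genes of small spread. Not all genes of the list were so: Npc2 was at 8.56 and 7.93 in the null arrays.

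Among the further membrane genes, Laptm4b was at 7.58 and 7.97 in the null arrays, against 8.34 and 8.21 in the wild-type arrays, a difference of -0.50 ± 0.17 (SE; unadjusted p = 0.0362). Its paralog Laptm4a differed by -0.26 ± 0.11 (SE) and Tpcn2, a cation channel of the lysosome, by -0.28 ± 0.11 (SE). Of the sorting genes, M6pr, the cation-dependent mannose 6-phosphate receptor that brings new hydrolases to the lysosome, was at 8.77 and 8.52 in the null arrays, against 8.88 and 8.92 in the wild-type arrays, a difference of -0.26 ± 0.13 (SE). The other receptor, Igf2r, differed by -0.11 ± 0.12 (SE) and the sorting receptor Sort1 by -0.14 ± 0.13 (SE).

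Among the further autophagy genes, Pik3c3, the catalytic subunit (VPS34) of the lipid kinase that works with Beclin 1, was at 7.18 and 7.21 in the null arrays, against 7.54 and 7.47 in the wild-type arrays, a difference of -0.31 ± 0.10 (SE; unadjusted p = 0.0328). Pik3r4, its regulatory partner (VPS15), was at 6.52 and 6.45 in the null arrays, against 6.78 and 6.79 in the wild-type arrays, a difference of -0.31 ± 0.10 (SE; unadjusted p = 0.0353). Atg14, the subunit that directs this complex to autophagy and a gene picked after its values were seen, differed by -0.28 ± 0.11 (SE). Other genes of the same complexes, also picked after their values were seen, had smaller differences with overlapping groups: Uvrag -0.03 ± 0.17, Nrbf2 0.02 ± 0.12 and Rubcn -0.08 ± 0.13 (SE), beside -0.06 ± 0.12 for Becn1. Differences between these genes were not tested, and the limma adjusted p of Pik3c3 and Pik3r4 was 0.721. Trp53inp1, a stress-induced protein that binds Atg8 proteins, was at 9.64 and 9.46 in the null arrays, against 9.98 and 10.07 in the wild-type arrays, a difference of -0.48 ± 0.12 (SE; unadjusted p = 0.0135; limma adjusted p = 0.721).

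Among the further pump genes, differences went both ways. Atp6v0e2 differed by -0.38 ± 0.12 (SE) and Atp6v1c1, a subunit of the part that splits ATP, by -0.34 ± 0.14 (SE), both with groups that did not overlap. Atp6v0d2, a subunit known from osteoclasts and macrophages, was at 3.83 and 3.56 in the null arrays, against 3.31 and 2.83 in the wild-type arrays, a difference of 0.62 ± 0.21 (SE; unadjusted p = 0.0363). All 4 of its values lay below the level of the median gene. Atp6ap1, an accessory subunit whose gene is also X-linked, differed by -0.20 ± 0.14 (SE).

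**Figure D4:**
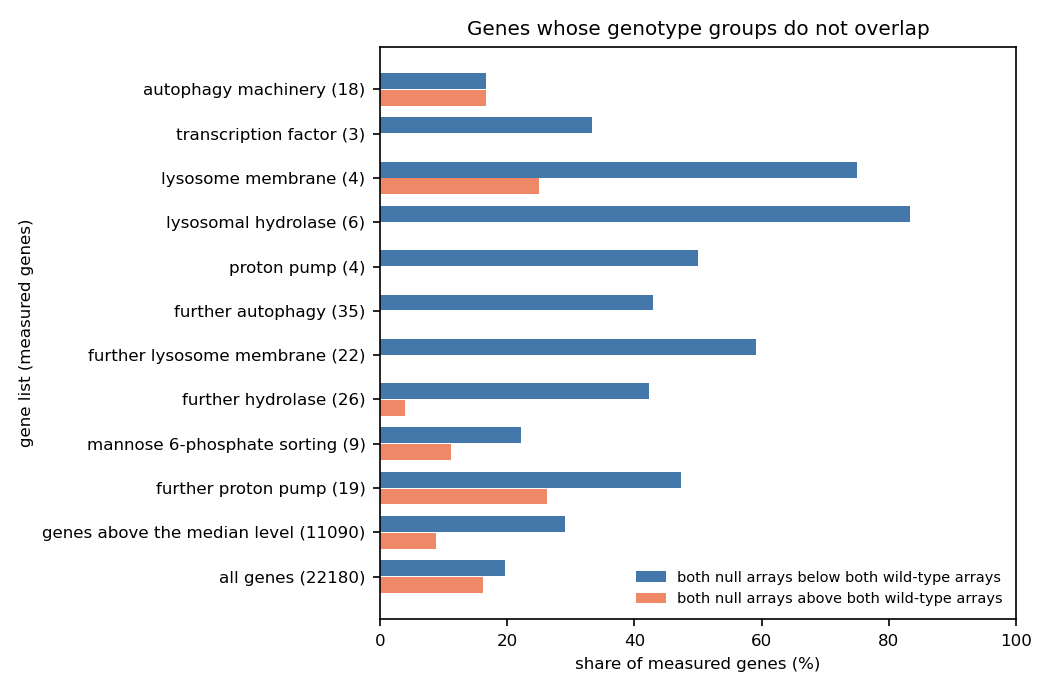
Share of the measured genes of each list (percent, horizontal axis) in which both Ifrd1 null arrays lay below both wild-type arrays (blue) or above both (orange), with the number of measured genes in brackets. Hydrolase genes (5 of 6) and membrane genes (3 of 4) have the longest blue bars, against 29.1% of genes above the median level, and lists of 3 to 6 genes move in large steps.

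The order of the roles was compared across ways of processing the arrays. The membrane, hydrolase and pump medians stayed below 0 in the null under each alternative tried. The autophagy median lay at -0.01 with the deposited values, at 0.05 with quantile normalization, at 0.07 with cyclic loess, at 0.03 without null 1 and at -0.09 without null 2. Without null 2 the order of the roles changed, since the autophagy median was then below the pump median of -0.08. The hydrolase median (-0.13) was then also below the membrane median (-0.12). Without wild type 1 the pump median (-0.20) was below the hydrolase median (-0.18). Without wild type 2 the hydrolase median (-0.20) was below the membrane median (-0.17). Relative to the brighter genes as a whole, the lysosome median of -0.12 with quantile normalization stood beside a median of 0.00 for the brighter set.

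**Figure D5:**
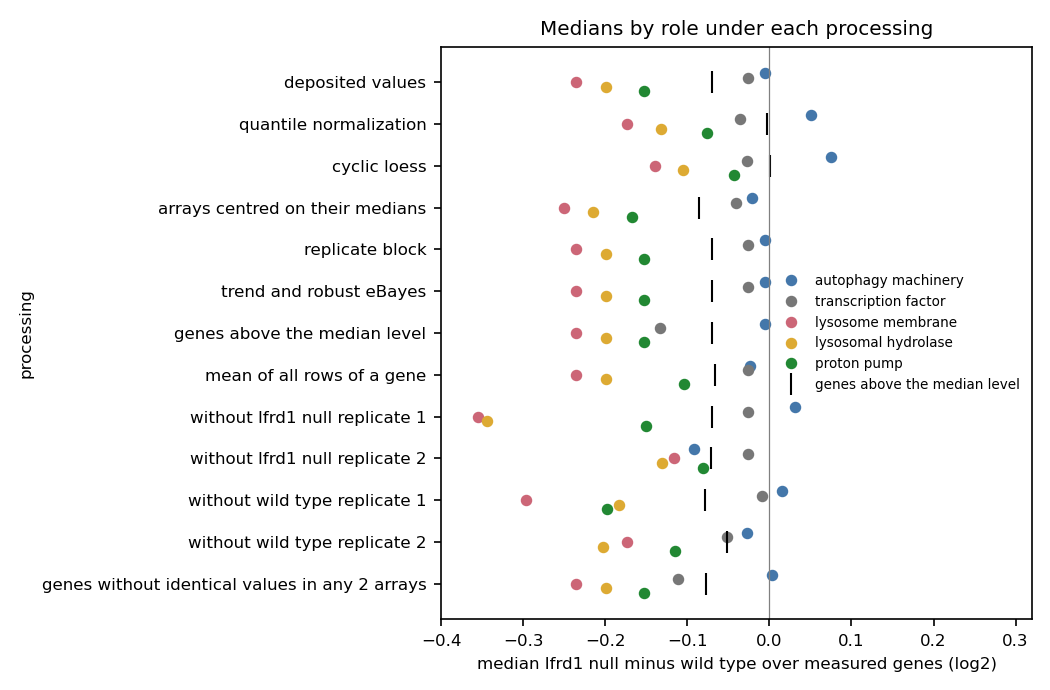
Median difference between genotypes over the measured genes of each role (Ifrd1 null minus wild type, log2, horizontal axis) under each processing (vertical axis), with coloured points for the roles and a black tick for all genes above the median level. Quantile normalization and cyclic loess move the autophagy, membrane, hydrolase and pump medians to the right, the autophagy median to 0.07 with cyclic loess, and leaving out null 2 brings the lysosome roles closest to the black tick.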

How the data were processed

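RNA of whole pancreas from 2 Ifrd1 null and 2 wild-type mice was read on 1 Affymetrix array each, so the number of arrays limits the precision. The authors deposited a table of 41345 rows with no counts or detection calls. The deposited values were processed by the authors before deposit and were taken as log2 from their range of 0.218 to 13.9, while the log base, background correction, summary method and normalization are not given in the sources used here. They entered the fit unchanged. Rows were named through GEO's platform annotation: 23521 had 1 symbol, 1814 several and 16010 none. A gene with several rows was read from the row of highest mean, which left 22180 genes, of which 21994 matched RefSeq by identifier.

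All genes were fitted with limma 3.58.1 (R 4.3.3; lmFit and eBayes, two-sided), Ifrd1 null minus wild type, and p-values were adjusted over all genes by Benjamini-Hochberg. The script was tested on simulated data. The genes, the wider lists and the marker lists were chosen with earlier results of these data known. Values per array are given for the genes of smallest unadjusted p and highest mean in each role, for a fixed list of genes of interest, and for others to account for all members; of each wider list, for the 3 genes of smallest p and the gene of highest mean, of which some are given as differences only. Alternatives were quantile normalization, cyclic loess, median centring, a replicate block, trend and robust eBayes, a filter on dim genes, the mean of all rows of a gene, and leaving out each array; leaving out genes with identical values in any 2 arrays was chosen after seeing the data. Deviations of same-numbered arrays from their group means had a correlation of -0.0352 over 22180 genes. With 2 arrays per genotype this value cannot show whether the arrays were paired. Promoters are RefSeq windows of build GRCm38.p6. A planned comparison of Atg8 protein sequences was not run.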

Additional observations from a re-analysis of the deposited data

How the results depend on the processing

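With 2 arrays per genotype, only large differences could pass, and 3124 genes (14.1%) had an identical value in 2 or more arrays. No measured gene of the 35 passed the adjusted threshold under any alternative (0 genes with limma; 0 at an unadjusted p under 0.05 with the deposited values). At an unadjusted p under 0.05, leaving out 1 array gave 0 to 6 genes: without null 1 Tfe3, Scarb2, Hexa, Lgmn, Psap and Atp6v1a, and without null 2 the 2 genes Sqstm1 and Map1lc3a, all lower in the null. Such a p takes a lone null array to vary like the wild-type pair. In each of these genes the null arrays differed more from each other than the wild-type arrays did. The standard deviation was 0.20 in the null against 0.0004 in the wild type for Sqstm1, and 0.32 against 0.03 for Map1lc3a. It was 0.29 against 0.03 for Hexa and 0.56 against 0.12 for Lgmn, whose null arrays lay on opposite sides of the wild type. The replicate block changed no call, and the smallest adjusted p among the 35 genes was then 0.860 (limma).

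The autophagy median was 0.075 with cyclic loess and -0.092 to 0.031 with 1 array left out. The hydrolase median was -0.34 to -0.13 with 1 array left out. The pump median was -0.076 with quantile normalization, -0.043 with cyclic loess, -0.10 with the mean of all rows, and -0.20 to -0.081 with 1 array left out. The transcription factor median was -0.13 over genes above the median level, -0.11 without genes that have identical values, and -0.051 to -0.0086 with 1 array left out. With arrays centred on their medians, 25 of the 35 genes were lower in the null, where 70.5% of the brighter set was; with quantile normalization the counts were 19 of 35 and 50.6%, and with cyclic loess 18 of 35 and 49.6%. Signs turned for Gabarap (-0.012 centred, -0.12 with the mean of all rows, -0.065 to 0.071 with 1 array left out), Mitf (0.032 with quantile normalization, 0.021 with cyclic loess), Tfeb (-0.036 and -0.028 with the same 2, -0.025 to 0.061 with 1 array left out), Lgmn (-0.51 to 0.28 with 1 array left out, 0.28 without null 2) and Map1lc3b (-0.14 to 0.19 with 1 array left out, -0.14 without null 2). The cause was not tested.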
